A study of Mus musculus with 16 samples.

Results

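The genes described here mark the fibroblasts of the heart: Pi16, Meox1, Pdgfra, Tcf21, Ddr2, Thy1, Fap, Dpt, Itih5 and Gas1. They were chosen by name, as probe sets whose annotation gives exactly 1 gene symbol equal to one of these names. This took 14 of the 22690 probe sets on the array and 10 of the 12393 genes that had a probe set of 1 symbol. Gas1 had 3 probe sets, Pdgfra and Pi16 had 2 each, and the other genes had 1 each. For counts, each gene was read on its probe set of highest mean, and all 10 genes passed the filter on dim probe sets. Of the 10 genes, 8 were taken as markers of resident fibroblasts (Pi16, Pdgfra, Tcf21, Ddr2, Thy1, Dpt, Itih5 and Gas1) and 2 as markers of activation (Meox1 and Fap), an assignment made from general knowledge of these genes.

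The study asked whether the early response of the heart to pressure overload differs between the sexes. It measured total RNA of the left ventricle in 16 C57BL/6J mice of 12 to 14 weeks, 1 mouse per Affymetrix array, with 4 mice in each of 4 groups: female TAC, male TAC, female sham and male sham. TAC is transverse aortic constriction, a band around the aorta that makes the left ventricle pump against a higher pressure, and the RNA was taken 14 days after the operation. The sham mice are labelled only as such, and the protocol given for all samples names ketamine with isoflurane as anaesthesia and buprenorphine after surgery. The labels name no genetic change. Because the RNA came from whole ventricle, a change in the number of fibroblasts and a change in RNA per fibroblast cannot be told apart in any value below.

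Cardiac fibroblasts build and maintain the collagen matrix between the muscle cells. Most of them descend from the epicardium under the control of the transcription factor Tcf21 and carry the receptor Pdgfra in the healthy heart. After pressure overload they multiply, become activated and in part turn into myofibroblasts, which secrete fibrillar collagens and periostin. Such activated cells are known to switch on genes such as Meox1 and Fap, while the resident markers are often used to recognise fibroblasts whether or not they are activated.

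Values are the authors' signal, a brightness on a linear scale that they had scaled so that the trimmed mean of each array was near 500.2. Differences were tested as differences of mean log2(signal + 16) with limma over all 13576 probe sets that passed the filter. A difference was called where the p adjusted over all of them was below 0.05, and "rose" and "fell" refer to such calls. Array medians lay between 189.7 and 222.3, and array profiles correlated at 0.927 to 0.958 within groups. RNA quality moved with the operation. The 3' to 5' ratio of the Gapdh control was 0.989 ± 0.030 in female TAC against 0.865 ± 0.058 in female sham, and 1.08 ± 0.07 in male TAC against 0.885 ± 0.039 in male sham (SD, n = 4 each), with no overlap between TAC and sham arrays. The log2 signal of the 5' 18S rRNA control was 9.35 to 10.74 in female TAC against 10.75 to 12.80 in female sham, and 9.11 to 13.16 in male TAC against 12.65 to 13.82 in male sham, where the value of 13.16 was that of male TAC 5 alone. RNA quality differed between the sexes too, with overlapping ranges. The log2 18S signal averaged 11.96 in female sham against 13.35 in male sham, and 10.20 in female TAC against 10.34 in male TAC. The Gapdh ratio was higher in male TAC than in female TAC and closer between the sham groups. Comparisons of the sexes below carry these differences. The titles of the samples also carry consecutive numbers that take the groups 1 after the other. What they count is not stated, and an order of processing, if that is what they give, cannot be told apart from the groups in any comparison below.

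Both activation markers rose after TAC in males, and Meox1 rose in females too. Meox1 encodes a homeobox transcription factor that is switched on in fibroblasts of stressed mouse hearts (chr11:101877510-101894354, GRCm38.p6). Its signal was 753, 1275, 1280.0 and 1345 in female TAC, against 514, 579.9, 283 and 466 in female sham. In males it was 993, 1568, 660.3 and 1293 after TAC, against 304, 485, 346 and 487 in sham. Every TAC mouse lay above every sham mouse of its sex, although the lowest TAC values, female TAC 1 and male TAC 4, came closer to the sham range than the others. The increase was 2.49-fold in females (log2 difference 1.32 ± 0.26 SE, adjusted p = 0.00164) and 2.64-fold in males (1.40 ± 0.26, adjusted p = 0.000758). With the Gapdh ratio as a covariate neither call held, and the differences were 0.82 in females (adjusted p = 0.205) and 0.67 in males (adjusted p = 0.456).

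Fap encodes fibroblast activation protein, a membrane-bound serine protease that cleaves matrix proteins (chr2:62500936-62575509). Its signal was 424, 434, 217 and 414 in female TAC, against 321, 215, 314 and 237 in female sham. The female groups overlapped through female TAC 3, which lay near the lowest sham value. In males Fap had 394, 583, 374 and 364 after TAC, against 202, 205, 142 and 131 in sham, so that the lowest TAC value was well above the highest sham value. Fap rose 2.39-fold in males (1.26 ± 0.24, adjusted p = 0.000992), whereas the female difference of 0.40 ± 0.24 did not pass (adjusted p = 0.288). The male call did not hold with the 18S signal (0.98, adjusted p = 0.0969) or the Gapdh ratio (1.16, adjusted p = 0.164) as a covariate. The plot of signals by array shows the activation markers first.

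**Figure D1:**
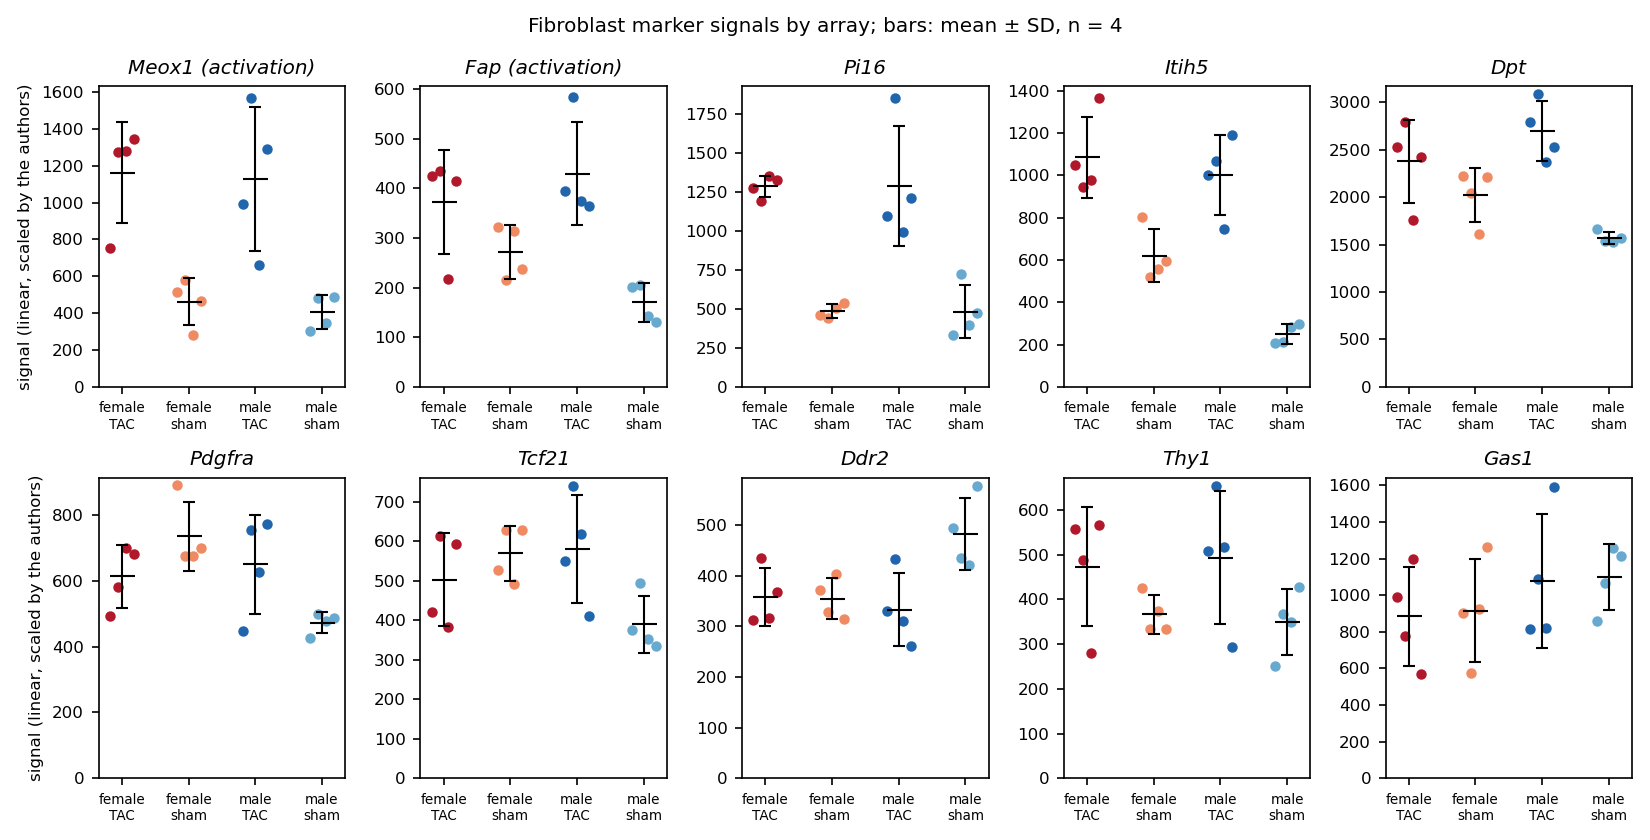
Signal (linear scale, scaled by the authors) of the 10 fibroblast markers on their probe sets of highest mean, with 1 point per array in female TAC, female sham, male TAC and male sham; black bars give the mean ± SD of 4 arrays. Meox1, Pi16 and Itih5 sit higher in TAC than in sham in both sexes without overlap, Fap and Dpt do so in males only, and the remaining panels overlap between TAC and sham in both sexes. Each panel has its own scale, and levels of different genes are not comparable.

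Among the resident markers, Pi16 and Itih5 rose in both sexes and Dpt rose in males. Pi16 encodes peptidase inhibitor 16, a secreted protein of adventitial fibroblasts that is known to restrain the growth of mouse heart muscle cells (chr17:29318796-29328903). Its signal was 1276, 1194, 1350.5 and 1325 in female TAC, against 460.2, 445, 505 and 538 in female sham. It was 1098, 1854, 993 and 1213 in male TAC, against 334, 725, 396 and 477 in male sham. The groups were far apart in both sexes and tightest in females, where the means were 1286 ± 69 in TAC and 487 ± 42 in sham (SD, n = 4 each). Pi16 rose 2.59-fold in females (1.37 ± 0.20, adjusted p = 0.000112) and 2.65-fold in males (1.40 ± 0.20, adjusted p = 6.53e-05). The male difference was 0.78 and not called with the Gapdh ratio as a covariate (adjusted p = 0.209).

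Itih5 encodes a heavy chain of the inter-alpha-trypsin inhibitor family, secreted proteins that bind hyaluronan in the matrix (chr2:10153536-10256529). Its signal was 1049, 948, 979.8 and 1365 in female TAC, against 802, 521, 559 and 595 in female sham. It was 1001, 1069.9, 747 and 1193 in male TAC, against 207, 210.5, 282 and 297 in male sham. Both TAC groups thus stood at the top, female sham in the middle and male sham at the bottom. TAC and sham did not overlap within either sex, and across the sexes male TAC 4 lay just below female sham 1. Itih5 rose 1.74-fold in females (0.80 ± 0.18, adjusted p = 0.00458) and 3.83-fold in males (1.94 ± 0.18, adjusted p = 6.83e-07). The male call held under every alternative listed at the end, with differences between 1.76 and 2.16, while the female call did not hold with the Gapdh ratio as a covariate (0.84, adjusted p = 0.0834).

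Dpt encodes dermatopontin, a small matrix protein that binds decorin and helps collagen fibrils to form (chr1:164796663-164824274). Its signal was 2525, 2797, 1762 and 2424 in female TAC, against 2220.3, 2048, 1609 and 2212 in female sham. It was 2791, 3094, 2370.5 and 2529.8 in male TAC, against 1665, 1539.5, 1525 and 1566 in male sham. The male sham values were close together and all below the male TAC values, and the female groups overlapped through female TAC 3. Dpt rose 1.70-fold in males (0.76 ± 0.14, adjusted p = 0.000621), and the female difference was 0.22 ± 0.14 (adjusted p = 0.312). In males the call did not hold with the 18S signal (0.64, adjusted p = 0.0644) or the Gapdh ratio (0.67, adjusted p = 0.161) as a covariate.

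The stretches just upstream of these 3 genes are shown because they are the resident markers that rose together in males. Promoter sequences came from RefSeq (GRCm38.p6), which held an entry for 7 of the 10 markers, and the windows below end at the base before the annotated gene start. Capitals mark matches, on either strand, to 1 of 6 short motifs: the E-box CANNTG, which basic helix-loop-helix factors such as Tcf21 bind, the TEAD motif GGAATG, the AP-1 motif TGANTCA, the TATA box motif TATAAA, the GC box motif GGGCGG and the SMAD motif CAGAC. The motifs were chosen with the results known.
Itih5, chr2:10153293-10153535, plus strand: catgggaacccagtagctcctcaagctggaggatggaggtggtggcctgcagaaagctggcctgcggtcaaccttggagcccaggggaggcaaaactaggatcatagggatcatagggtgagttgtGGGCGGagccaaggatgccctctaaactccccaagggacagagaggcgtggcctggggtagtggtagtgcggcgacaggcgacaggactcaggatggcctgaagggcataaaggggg
Pi16, chr17:29318632-29318795, plus strand: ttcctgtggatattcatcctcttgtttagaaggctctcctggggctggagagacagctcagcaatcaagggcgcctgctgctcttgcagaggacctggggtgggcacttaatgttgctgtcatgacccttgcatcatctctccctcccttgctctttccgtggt
Dpt, chr1:164796413-164796662, plus strand: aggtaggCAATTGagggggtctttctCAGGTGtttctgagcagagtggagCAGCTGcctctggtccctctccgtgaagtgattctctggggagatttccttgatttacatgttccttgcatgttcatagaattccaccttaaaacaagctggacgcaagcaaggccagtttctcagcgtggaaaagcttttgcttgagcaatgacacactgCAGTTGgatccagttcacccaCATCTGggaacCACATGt
The Itih5 window of 243 bases held 1 GC box, 117 bases before the gene start, a motif found in 32% of the 32544 promoter windows of the same length. The Dpt window of 250 bases held 6 E-boxes, the nearest 7 bases and the farthest 243 bases before the gene start. Of windows of that length 66.2% held at least 1, and how many held as many as 6 was not counted. The Pi16 window of 164 bases held none of the 6 motifs. At that length an E-box was found in 52.3% of windows and a GC box in 18.7%. A match in letters is not a measured binding site, and these arrays hold no measurement of binding.

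Ddr2 was the single marker that fell, and it did so in males. It encodes a receptor tyrosine kinase that binds fibrillar collagen (chr1:169972307-170110836). Its signal was 329.5, 432, 310.0 and 260.4 in male TAC, against 495, 434, 421 and 578 in male sham. The groups overlapped by 1 array, male TAC 2, which lay between the lower sham values. In females it was 313, 434, 317 and 367 after TAC, against 371, 329, 404 and 314 in sham, with the groups lying on top of each other. The male decrease of 1.44-fold (-0.52 ± 0.18) passed narrowly (adjusted p = 0.0451), and the female difference was 0.01 ± 0.18 (adjusted p = 0.985). This call did not hold with any single one of male TAC 1, male TAC 4, male TAC 5, female TAC 5, female sham 2, female sham 3 or the 4 male sham arrays left out, nor under quantile normalization, median centring, no filter, array weights, a fit of only the groups compared or the replicate block. With the 18S signal (-0.82, adjusted p = 0.0535) or the Gapdh ratio (-0.88, adjusted p = 0.126) as a covariate the difference was larger in size and not called. Over all alternatives its adjusted p lay between 0.0213 and 0.138 and its log2 difference between -0.88 and -0.42.

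Pdgfra, the receptor for platelet-derived growth factors that marks resident fibroblasts (chr5:75151322-75198206), was not called in either sex. Its brighter probe set had signals of 492, 581, 698 and 682 in female TAC, against 890.3, 674, 675 and 700.3 in female sham. In males the values were 447, 753, 626 and 773 after TAC, against 427, 498, 478 and 486 in sham. In females 2 of 4 TAC values lay below the sham range and 2 within it, whereas 3 of 4 male TAC values lay above it. The differences were -0.26 ± 0.17 in females (adjusted p = 0.345) and 0.42 ± 0.17 in males (adjusted p = 0.097). Without male TAC 1, the lowest of its group, the male difference was 0.58 and was called (adjusted p = 0.0164). This was 1 of 29 alternatives, over which the difference lay between 0.33 and 0.58, with limma adjusted p up to 0.382.

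Tcf21, the basic helix-loop-helix factor of the fibroblast lineage (chr10:22817263-22820143), had signals of 422, 613, 382 and 592 in female TAC, against 528, 629, 491 and 628 in female sham. In males they were 551, 739.8, 619 and 411 after TAC, against 374, 495, 354 and 334 in sham. In females 2 of 4 TAC values lay below the sham range and 2 within it, and in males 3 of 4 lay above it, with male TAC 5 within it. The differences were -0.19 ± 0.19 in females (adjusted p = 0.566) and 0.54 ± 0.19 in males (adjusted p = 0.059). The male difference passed under quantile normalization (0.61, adjusted p = 0.0269) and median centring (0.60, adjusted p = 0.0315), and without male TAC 5, female TAC 3 or male sham 2. It was called under 8 of 29 alternatives. Over all of them it lay between 0.09 and 0.69, with limma adjusted p between 0.0129 and 0.914.

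Thy1 encodes a small anchored surface glycoprotein used to sort fibroblasts, which T cells and neurons also carry (chr9:44043384-44048579). It had 558, 488, 279.7 and 567 in female TAC, against 426, 333, 374 and 335 in female sham. In males it had 509, 652, 518 and 293 after TAC, against 250.1, 367, 349 and 428 in sham. In each sex 3 TAC arrays lay above all sham arrays, and 1, female TAC 3 or male TAC 5, lay among or below them. The differences were 0.31 ± 0.24 in females (adjusted p = 0.436) and 0.45 ± 0.24 in males (adjusted p = 0.216). Without male TAC 5 the male difference was 0.68 and was called (adjusted p = 0.0484). It was called under 2 of 29 alternatives, over which it lay between -0.09 and 0.68, with limma adjusted p up to 0.965. Of the 11 T cell markers looked at, 10 had a probe set of 1 symbol and 0 were above the filter limit. Their summed signal was 596 to 645 in female TAC and 416 to 817 in female sham, and 499 to 821 in male TAC and 747 to 849 in male sham. Of 9 Schwann cell and neuron markers, 5 were tested and 0 were called in either sex by limma, with 1 in females and 0 in males at an unadjusted p below 0.05.

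Gas1 encodes an anchored membrane protein that arrests growth and acts as a coreceptor for Hedgehog ligands (chr13:60174405-60177535). Its brightest probe set had signals of 989, 779, 1198 and 571 in female TAC, against 905, 575, 923 and 1263 in female sham. It had 813, 1086, 823 and 1592 in male TAC, against 859.5, 1064, 1256 and 1215 in male sham. The ranges of TAC and sham largely coincided in both sexes, and the differences were -0.05 ± 0.25 in females (adjusted p = 0.925) and -0.07 ± 0.25 in males (adjusted p = 0.893). The second probe set differed by -0.40 in females (adjusted p = 0.236) and -0.38 in males (adjusted p = 0.243). Averaged over the sexes it differed by -0.39 (adjusted p = 0.0581), a difference that was called without male TAC 5 (-0.49, adjusted p = 0.0112), without female TAC 3 (-0.43, adjusted p = 0.0462) or without female sham 1 (-0.48, adjusted p = 0.0152). That difference was called under 6 of 28 alternatives. Over all of them it lay between -0.54 and 0.12, with limma adjusted p up to 0.739. The Gas1 probe sets therefore did not give the same size of difference.

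The remaining probe sets of these genes were dimmer. The second Pdgfra probe set, with signals of 84 to 282 over the 16 arrays, differed by -0.12 in females (adjusted p = 0.867) and 0.29 in males (adjusted p = 0.63). The second Pi16 probe set and the third Gas1 probe set lay below the filter limit, a signal of 130.8 on average. Fitted without the filter, this dim Pi16 probe set differed by -0.45 in females (adjusted p = 0.699) and -0.88 in males (adjusted p = 0.353), opposite in sign to the bright one. When each gene was read on the mean of its probe sets instead, Pi16 was called in neither sex, and the count of markers called was 2 in females (Itih5 and Meox1) and 4 in males (Dpt, Fap, Itih5 and Meox1). That setting, which has no filter on dim probe sets, called 6.82% of all genes in females and 8.63% in males. The dim Gas1 probe set differed by 0.42 in females (adjusted p = 0.764) and -0.17 in males (adjusted p = 0.919).

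Counted over the 10 markers, 3 rose in females and 5 rose in males, where 1 also fell. In females the 3 were 2 of 8 resident markers, Pi16 and Itih5, and 1 of 2 activation markers, Meox1. Over all probe sets tested 6.46% rose in females. In males the 5 were 3 of 8 resident markers, Pi16, Itih5 and Dpt, and both activation markers, beside 8.07% of all probe sets that rose and 9.77% that fell. The TAC values lay wholly above the sham values for 3 markers in females, beside 8.29% of all probe sets, and for 5 in males, beside 8.75%. Averaged over the sexes, the 5 that rose were Itih5 (1.37 ± 0.13), Pi16 (1.39 ± 0.14), Meox1 (1.36 ± 0.18), Fap (0.83 ± 0.17) and Dpt (0.49 ± 0.10), with adjusted p between 1.42e-07 and 0.00087, beside 12.9% of all probe sets.

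The resident markers did not all pass the test. Their median difference was 0.12 in females and 0.50 in males, against 0.86 and 1.33 for the activation markers and -0.03 in each sex over all probe sets tested. The differences of Pi16 and Itih5 were larger in value than that of Fap in both sexes, with no test between genes, whereas Pdgfra, Tcf21, Thy1 and Gas1 were called in neither sex. With the Gapdh ratio as a covariate, 1 of 10 markers was called in females (Pi16) and 1 in males (Itih5). The share of all probe sets called, in either direction, was then 3.67% in females and 2.93% in males, against 15.1% in females and 17.8% in males without a covariate. With the 18S signal 3 markers were called in females and 3 in males (Itih5, Meox1 and Pi16 in each), beside 11.3% of all probe sets in females and 7.34% in males.

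**Figure D2:**
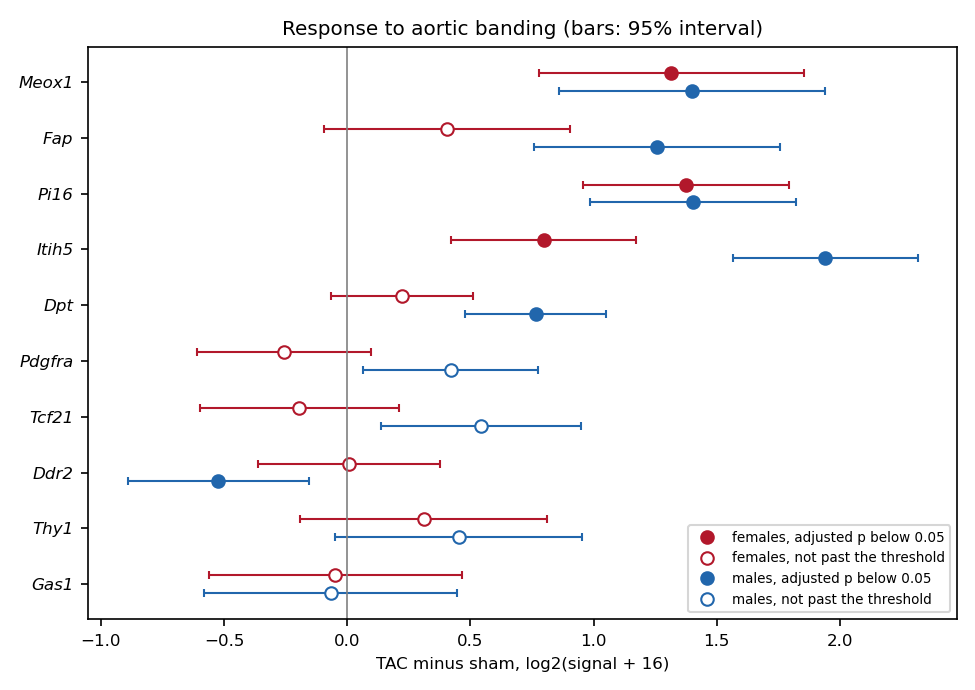
Difference of TAC minus sham in log2(signal + 16), x axis, for each marker, with bars for the 95% interval; females in red, males in blue, filled points where the adjusted p was below 0.05. Pi16 and Meox1 lie at nearly the same place in both sexes, Itih5 lies at 0.80 in females and 1.94 in males, and the intervals of Thy1 and Gas1 cross 0 in both sexes.

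The design allows a direct test of whether the response differed between the sexes, as the female response minus the male response. By limma 0 of the 10 markers were called, as were 0 of all probe sets tested (0.0%). At an unadjusted p below 0.05 there were 6 markers and 897 of 13576 probe sets. For Itih5 the difference of responses was -1.14 (95% interval -1.67 to -0.61, limma adjusted p = 0.285). For Fap it was -0.85 (interval -1.56 to -0.15) and for Tcf21 -0.74 (interval -1.31 to -0.16). For Pdgfra it was -0.68 (interval -1.18 to -0.18) and for Dpt -0.54 (interval -0.95 to -0.13). For Ddr2 it had the other sign, at 0.53 (interval 0.01 to 1.05). These 5 had adjusted p between 0.66 and 0.756. For Pi16 the difference was -0.03 with an interval of -0.62 to 0.56, and for Meox1 -0.08 with an interval of -0.85 to 0.68. These intervals are wide, so the responses of the sexes were not shown to be alike for either gene.

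In sham hearts a difference between the sexes was called for 1 marker. Itih5 averaged 619 ± 126 in female sham and 249 ± 47 in male sham (SD, n = 4 each), a 2.39-fold higher level in females (female minus male 1.26 ± 0.18, adjusted p = 0.00204), beside 0.0958% of all probe sets called higher in females. The call held under all alternatives run, with differences between 1.12 and 1.36. Sham groups of the 2 sexes did not overlap for 4 markers, beside 7.09% of all probe sets. Besides Itih5 these were Pdgfra (0.61, adjusted p = 0.155), Fap (0.63, adjusted p = 0.339) and, lower in females, Ddr2 (-0.42, adjusted p = 0.406), none of which was called. Pdgfra was 673.6 to 890.3 in female sham and 426.6 to 498.4 in male sham, and Ddr2 was 314.5 to 403.6 in female sham and 420.6 to 577.7 in male sham. At an unadjusted limma p below 0.05 there were 6 markers in sham, beside 1424 of 13576 probe sets. They were these 4 with Tcf21 (0.54) and Dpt (0.35), the same 6 as for the difference of responses.

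After TAC the sexes overlapped for all 10 markers, and the share of all probe sets that overlapped is not given here. Of the markers 0 were called by limma, beside 0.0663% of all probe sets. An unadjusted limma p below 0.05 was found for 0 markers, beside 874 of 13576 probe sets. At such shares these counts of 0 among 10 do not set the markers apart from other probe sets. Itih5 averaged 1086 ± 191 in female TAC and 1003 ± 188 in male TAC, a difference of 0.12 with a 95% interval of -0.26 to 0.49. For every marker the difference of responses is by construction its TAC difference minus its sham difference between the sexes. For Itih5 and the other markers alike, the sham difference and the difference of responses therefore share the sham arrays and are not independent.

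**Figure D3:**
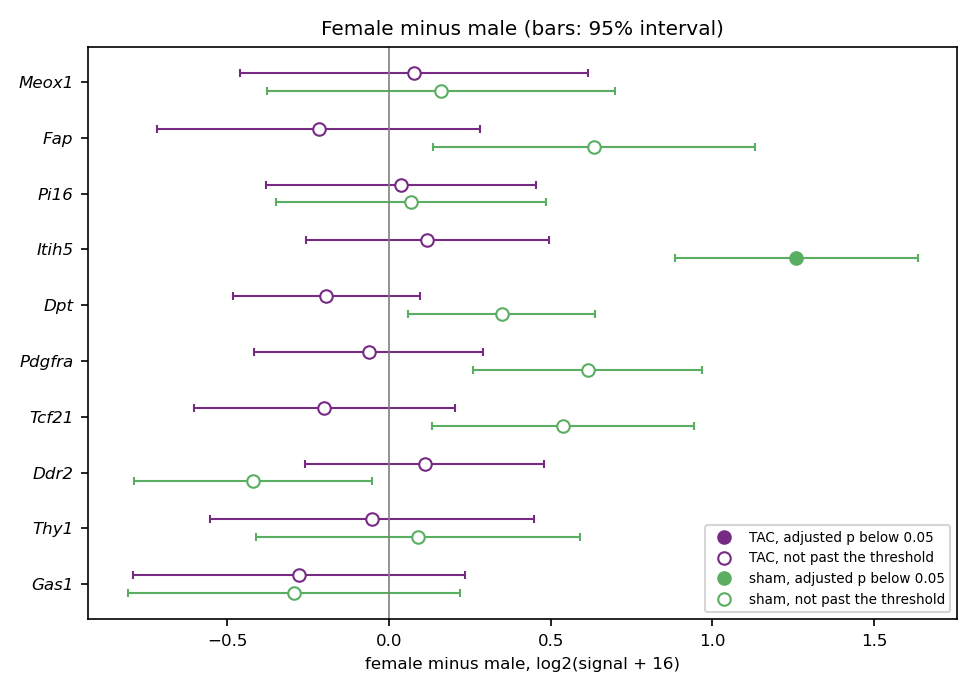
Difference of female minus male in log2(signal + 16), x axis, for each marker, with bars for the 95% interval; TAC in purple, sham in green, filled points where the adjusted p was below 0.05. In sham Itih5 lies at 1.26 and is the filled point, whereas in TAC all 10 intervals include 0.

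Within groups, several markers were low or high on the same arrays. Male TAC 5 and female TAC 3 each had the lowest Tcf21, Thy1 and Fap of their group and the highest Gas1 and Pdgfra, with Meox1 above the group mean. Male TAC 5 also had the lowest Ddr2 and the highest Itih5, and female TAC 3 the lowest Dpt and the highest Pi16. Male TAC 2 was the highest of its group for 7 of the 10 markers. Sham arrays held extremes as often. Male sham 1 and female sham 2 were each the lowest of their group for 6 markers, and female sham 1 was the highest for 5. Male TAC 5 and female TAC 3 were each the lowest for 4 and the highest for 3. With male TAC 5 and female TAC 3 both left out, an alternative chosen after these values were seen, 3 markers rose in females and 7 in males, beside 12.7% of all probe sets called in either direction in females and 16.9% in males. The 2 gained in males were Tcf21 (0.69, adjusted p = 0.0129) and Thy1 (0.68, adjusted p = 0.0158), and the Ddr2 call was lost (-0.42, adjusted p = 0.134). Averaged over the sexes, Thy1 then rose by 0.61 (adjusted p = 0.00183). Why male TAC 5 and female TAC 3 shared these extremes was not tested. Male TAC 5 also had the highest 18S signal of its group, whereas that of female TAC 3 (10.29 in log2) lay between those of other female TAC arrays. Neither array had the highest or lowest Gapdh ratio of its group.

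**Figure D4:**
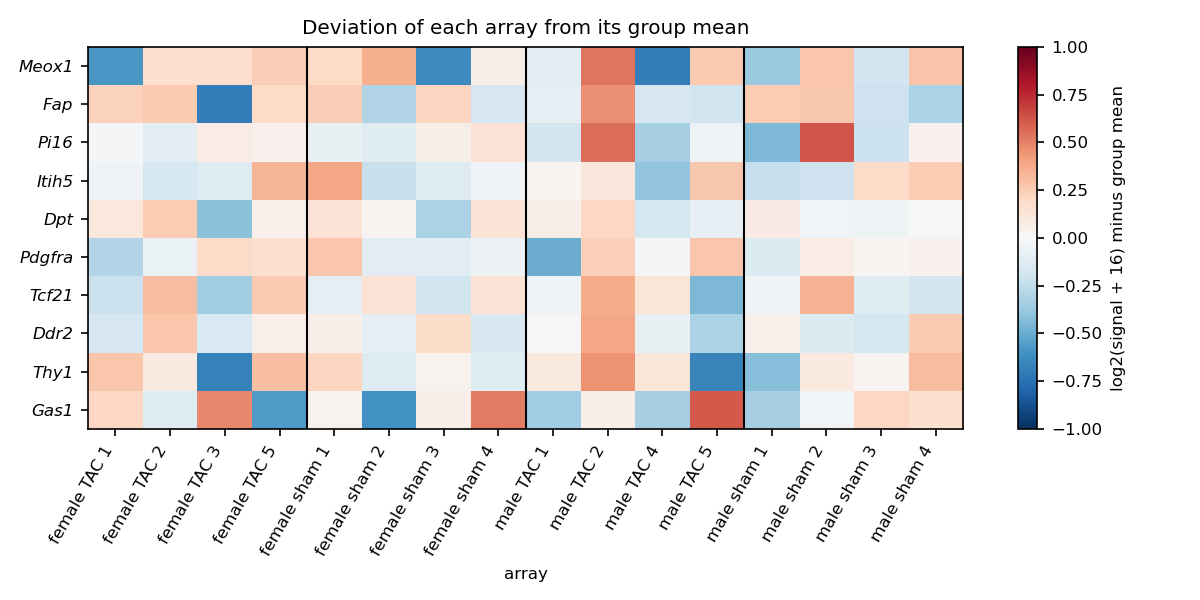
Deviation of each array from the mean of its group in log2(signal + 16), as colour (red above, blue below), for the 10 markers (rows) and 16 arrays (columns), in the order female TAC, female sham, male TAC, male sham. Female TAC 3 and male TAC 5 share low Tcf21, Thy1 and Fap with high Gas1 and Pdgfra and with Meox1 above the group mean. Male TAC 2 is above its group mean for all 10 markers.

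Other genes of the same cells were read from lists. Of 28 further fibroblast identity genes 24 were tested. In females 6 rose and 1 fell (median 0.35), beside 6.46% and 8.6% of all probe sets. In males 14 rose and 1 fell (median 0.52), beside 8.07% and 9.77%. The 4 with the smallest p averaged over the sexes were Pcolce, an enhancer of procollagen cleavage (1.28 in females, adjusted p = 1.98e-05, and 1.29 in males, adjusted p = 1.1e-05), Loxl1, an enzyme that crosslinks elastin (1.55 in females and 2.30 in males), the microfibril gene Mfap5 (1.22 in females and 1.71 in males) and the gelatinase gene Mmp2 (1.02 averaged over the sexes, called in both). The member that fell in both sexes was Scara5, a ferritin receptor of adventitial fibroblasts. It averaged 330.0 in female TAC against 604.5 in female sham (-0.88, adjusted p = 0.0299) and 238 in male TAC against 649 in male sham (-1.51, adjusted p = 0.000524). Scara5 was singled out after its values were seen.

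Of 29 further activation and myofibroblast genes 23 were tested, and 0 fell in either sex. In females 13 rose (median 1.17), beside 6.46% of all probe sets, and in males 16 rose (median 1.47), beside 8.07%. Postn, which encodes periostin of myofibroblasts, rose by 2.14 in females (adjusted p = 4.73e-05) and 2.90 in males (adjusted p = 1.28e-06). Fstl1, a secreted follistatin-like glycoprotein, rose by 1.45 in females and 1.88 in males, and the collagen genes Col1a2 and Col3a1 rose by 1.67 and 0.91 in females and by 2.14 and 1.96 in males. Acta2, the smooth muscle actin that defines contractile myofibroblasts, was not called, with -0.42 in females (adjusted p = 0.107) and 0.41 in males (adjusted p = 0.109). These lists were drawn up with earlier results of these data known and are no independent evidence.

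Partners and relatives of the markers were mostly not called. Of 24 genes, among them the PDGF ligands, the collagen receptor Ddr1, the Hedgehog genes and the hyaluronan genes, 13 were tested. In each sex 1 of the 13 rose, with a median of -0.04 in females and 0.23 in males. This count was near the share of all probe sets that rose, 6.46% in females and 8.07% in males. Cd44, the hyaluronan receptor, rose by 0.90 in females (adjusted p = 0.0164) and differed by 0.28 in males (adjusted p = 0.5). Pdgfrb, the receptor of mural cells and activated fibroblasts, differed by 0.44 in females (adjusted p = 0.0638) and rose by 0.73 in males (adjusted p = 0.0025). The hyaluronan synthase Has1 differed by -0.68 in females (adjusted p = 0.316) and -1.06 in males (adjusted p = 0.0921), and averaged over the sexes it fell by 0.87 (adjusted p = 0.034). Averaged over the sexes, 2 of the 13 rose, beside 12.9% of all probe sets, and 1 fell. The Hedgehog target Gli1 differed by -0.69 in females (adjusted p = 0.116) and -0.33 in males (adjusted p = 0.474).

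Markers of other cells moved too, and their part in the results above was not tested. Over all probe sets tested 6.46% rose and 8.6% fell in females, and 8.07% rose and 9.77% fell in males. Averaged over the sexes 12.9% rose. Of 10 endothelial markers, all tested, 0 were called in either sex by limma, with 1 in females and 0 in males at an unadjusted p below 0.05, and averaged over the sexes 1 rose, Vwf, the gene of von Willebrand factor (0.80, adjusted p = 0.0269). Their summed signal was 9222 to 10145 in female TAC against 8942 to 9861 in female sham, and 7540 to 9912 in male TAC against 8305 to 10131 in male sham. Of 9 mural cell markers 8 were tested. In females Des rose (0.61, adjusted p = 0.0034) and Myh11 fell (-1.34, adjusted p = 0.0401). The Myh11 signal was 22 to 257.8 in female TAC against 251.9 to 547.1 in female sham. Its lowest TAC value lay far below 130.8, the average at the filter limit. In males Des (0.43, adjusted p = 0.0301) and Pdgfrb rose. The medians of the 8 mural cell markers were -0.23 in females and 0.11 in males. Which cells the Des signal came from was not tested. Of 10 macrophage markers 2 rose in females and 4 in males, among them Ctss, by 0.78 in females (adjusted p = 0.00247) and 0.83 in males (adjusted p = 0.0013), and Csf1r, by 0.64 in females (adjusted p = 0.00244) and 0.52 in males (adjusted p = 0.00895). Their summed signal was 11498 to 17489 in female TAC against 9523 to 11053 in female sham, and 14591 to 15434 in male TAC against 9880.4 to 13874 in male sham. Of 9 cardiomyocyte markers 8 fell in females, beside 8.6% of all probe sets, and 5 fell in males, beside 9.77%. Their medians were -0.37 in females and -0.33 in males. Pln, which encodes the calcium pump regulator phospholamban, fell by 0.60 in females (adjusted p = 7.17e-05) and 0.56 in males (adjusted p = 0.0001). Of 8 epicardial markers only Krt8 was above the filter limit, and it was not called.

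**Figure D5:**
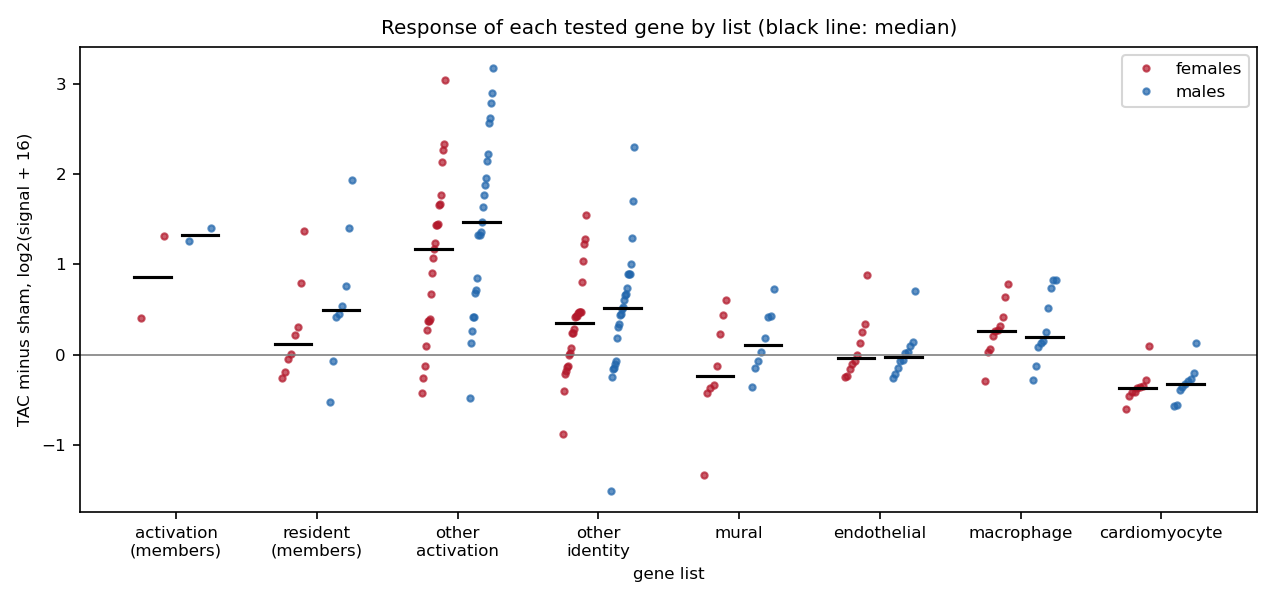
Difference of TAC minus sham in log2(signal + 16), y axis, for each tested gene of 8 lists, x axis, with females in red, males in blue and a black line at each median. The other activation genes have medians of 1.17 in females and 1.47 in males, the resident markers 0.12 and 0.50, the endothelial genes -0.04 and -0.02 and the cardiomyocyte genes -0.37 and -0.33.

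For each marker the genes of most similar pattern were taken by Pearson correlation of log2(signal + 16) over the 16 arrays, which share the operation, the sex and the RNA quality of each sample. Itih5 was most like Col3a1 (r = 0.95), Fkbp9 (0.93) and Actg1 (0.93), and Meox1 was most like Rhbdf1 (0.95), Mfap5 (0.95) and Fstl1 (0.94). Pi16 was most like F2r (0.96), Atp6ap2 (0.95) and Nme1 (0.95). Fap was most like Sec61b (0.88), Dpt (0.88) and Slc44a1 (0.88), and Dpt was most like Rflnb (0.90), Slc44a1 (0.89) and Col6a3 (0.88). Tcf21 was most like Gimap1 (0.91), Sirpa (0.82) and Lum (0.81). The nearest genes to Pdgfra (Rps24, 0.85), Ddr2 (Ppl, 0.81), Thy1 (Pygo2, 0.81) and Gas1 (Wrnip1, 0.82) were less similar to them.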

How the data were processed

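Per the labels, total RNA of the left ventricle of 16 mice was converted to labelled cRNA and hybridised to 1 Affymetrix array per mouse. What was deposited is the authors' intensity, called signal, of 22690 probe sets, made with GCOS per the submitters' processing notes; its version and settings are not given in the sources used here. Tested on the values, the intensities were linear and globally scaled, with a 2% trimmed mean of 500.21 to 500.25 on each array. This scaling was kept. Control probe sets (64) and the dimmest 40% by mean log2(signal + 16) were left out. limma 3.58.1 in R 4.3.3 fitted 4 group means over the 16 arrays, with the spread moderated along a trend in intensity; tests were 2-sided, and p was adjusted after Benjamini and Hochberg over 13576 probe sets. Fold changes are on the log2(signal + 16) scale. The number of arrays limits the precision, and detection calls were not used. Genes were named from the platform annotation, and coordinates and promoters come from RefSeq (GRCm38.p6). Named genes were all markers, up to 4 genes of each other list with the smallest p averaged over the sexes, and up to 3 genes of most similar pattern per marker; Scara5 and Acta2 were added after their values were seen. The members and lists were chosen with earlier results of these data known. Alternatives were other normalizations, pseudocounts of 1 and 64, filters, variance models and samples in the fit, a replicate block, the mean of a gene's probe sets, RNA quality covariates and each array left out. The fitting was tested on simulated data.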

Additional observations from a re-analysis of the deposited data

Results flagged for a closer look

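The signals of the 14 probe sets were looked at in all 4 groups, 56 groups of 4 arrays. A group was noted where its highest or lowest array stood apart from the rest, with a gap to the nearest array beyond Dixon's critical value. Chance notes about 1 in 20 such groups, and 7 were noted. In male TAC, Fap was highest on male TAC 2, at 583.2, with the others at 363.5 to 394.5. In female TAC, Fap was lowest on female TAC 3, at 217, with the others at 414 to 434.4, and Meox1 was lowest on female TAC 1, at 753.1, with the others at 1275 to 1344.9. Pdgfra was highest on female sham 1, at 890.3, with the others of its group at 673.6 to 700.3. The dim probe set of Pi16 stood apart on female TAC 3, at 86 against 6.6 to 18.8, on female sham 4, at 119 against 20.1 to 30.3, and on male sham 3, at 139.5 against 33.8 to 39.5. All of these dim values except that of male sham 3 lay below a signal of 130.8, the average at the filter limit.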

How the results depend on the processing

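Results were recomputed under 13 planned settings, with each of the 16 arrays left out, and with male TAC 5 and female TAC 3 both left out, the last chosen after seeing the data. The mean of a gene's probe sets was run for counts only, and a fit of only the groups compared was not run where all 4 groups enter the comparison. Of the recomputed values 2002 kept their side of the threshold, 33 lost a call, 23 gained one and 0 reversed a call. The 2002 include changes of sign where neither value passed. The count of called markers, 3 in females, 6 in males and 5 averaged over the sexes, became 3 in males and 3 averaged with the 18S signal as a covariate, and 1 in females, 1 in males and 1 averaged with the Gapdh ratio, by which TAC and sham arrays do not overlap. Calls over all probe sets fell too: with the 18S signal to 7.34% in males and 14.1% averaged, and with the Gapdh ratio to 3.67% in females, 2.93% in males and 4.71% averaged, against 15.1% in females, 17.8% in males and 28.7% averaged in the reported fit. The other settings gave 2 to 3 in females, beside 6.82% to 21.5% of all probe sets (of all genes where a gene's probe sets were averaged). They gave 4 to 7 in males, beside 8.63% to 24.8%, and 4 to 6 averaged, beside 15.4% to 37.5%. The sex difference in sham stayed at 1 marker, Itih5, beside 0.125% to 0.648% over all settings. That in TAC stayed at 0, beside 0.0221% to 0.0884%, and the difference of responses at 0, beside 0% to 0.236%. With the replicate number as a block, 3 were called in females, beside 12.9% of all probe sets, and 5 averaged, beside 24.7%. In males 5 were called, beside 15.4%, without Ddr2 (limma adjusted p = 0.111). The block gave 1 between sham groups, beside 0.479%, 0 in TAC, beside 0.0516%, and 0 in the difference of responses, beside 0.0147%. The check does not show that the numbers pair the mice, with correlations of -0.03 to 0.11 in 19 same-numbered pairs, 1 of them over 0.1. Dim probe sets have no detection call, and 4 mice per group limit every interval.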
